A study of Mus musculus with 11 samples.

Results

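The 10 genes described here encode the TGF-beta signal at the cell surface and in the matrix: the ligands Tgfb1, Tgfb2 and Tgfb3, the receptors Tgfbr1, Tgfbr2 and Tgfbr3, and the latent TGF-beta binding proteins Ltbp1, Ltbp2, Ltbp3 and Ltbp4. They were chosen by name, with earlier results of these data known, and 10 of 10 were found among the 18194 genes measured. Counts set beside the share over all genes therefore describe these genes and are not a test of them as a set. The arrays were Affymetrix mouse expression arrays hybridised with total RNA described as from the left ventricle of C57BL/6 mice. Atrial marker genes, given below, varied widely between the adult arrays and were high in newborns. The 4 groups were adult hearts labelled HMGN5 transgenic (3 arrays), control adult hearts (3 arrays), newborn hearts labelled HMGN5 transgenic (3 arrays) and control newborn hearts (2 arrays). The transgene put a FLAG-tagged, full-length mouse Hmgn5 cDNA behind the CAG promoter and a floxed LacZ cassette. An alphaMHC-cre transgene, active in heart muscle cells, removed the cassette. Controls were labelled wild-type, so the effect of cre and that of Hmgn5 cannot be told apart. Exact ages are not given in the sources used here.

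TGF-beta is made as a precursor whose propeptide stays bound to the mature ligand and keeps it latent. The propeptide is tethered to a latent TGF-beta binding protein, which anchors the complex in fibrillin-rich matrix until integrins, thrombospondin or proteases release the ligand. Free ligand binds the type 2 receptor, which recruits and activates the type 1 receptor; the activated pair phosphorylates Smad proteins that enter the nucleus. In the heart this pathway is known for valve and septum formation in the embryo and for matrix production by fibroblasts after injury.

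Expression values are log2 units, so a difference of 1 is a doubling, and each gene is read by its probe set with the highest mean over the arrays. A gene was called at a limma adjusted p under 0.05 over all 18194 genes. The ventricle marker list (Myl2 and Irx4) had means from 10.63 to 10.89 in adult and 11.50 to 11.69 in newborn arrays, and the heart muscle list means from 13.23 to 13.72 over all arrays. The Hmgn5 probe set read 8.26 to 8.71 in adult hearts labelled transgenic and 8.44 to 8.77 in adult controls, and 8.56 to 8.84 against 8.81 to 8.85 in newborns. It was thus not higher under the transgenic label, and whether it covers a part of the transcript that the transgene holds is not given in the sources used here, so every direction below rests on the labels. Replicate 3 of both adult groups stood apart, with 18S ribosomal RNA control signals of 12.18 and 11.89 against 7.64 to 8.58 in the other adult arrays. Newborn arrays read 10.05 to 10.53, so in every comparison of adults with newborns the age and whatever the 18S signal reflects cannot be told apart. The sample titles name no batch.

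In adult hearts 6 of the 10 genes were higher under the transgenic label, 0 were lower and 4 did not pass. The genes that rose were Tgfb2, Tgfb3, Tgfbr1, Tgfbr2, Ltbp2 and Ltbp3, so that each of the 3 roles was represented. Over all genes 7.09% were called in either direction, 4.16% higher and 2.93% lower. The median difference of the 10 genes was 0.97, beside a median of 0.00 over all genes, and it was 0.39 when the probe sets of each gene were averaged. Adult transgenic and control arrays did not overlap for 7 of the 10 genes, 6 with transgenic above and 1, Ltbp1, below, where 17.9% of all genes showed such a separation, 10% with transgenic above and 7.94% with transgenic below.

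**Figure D1:**
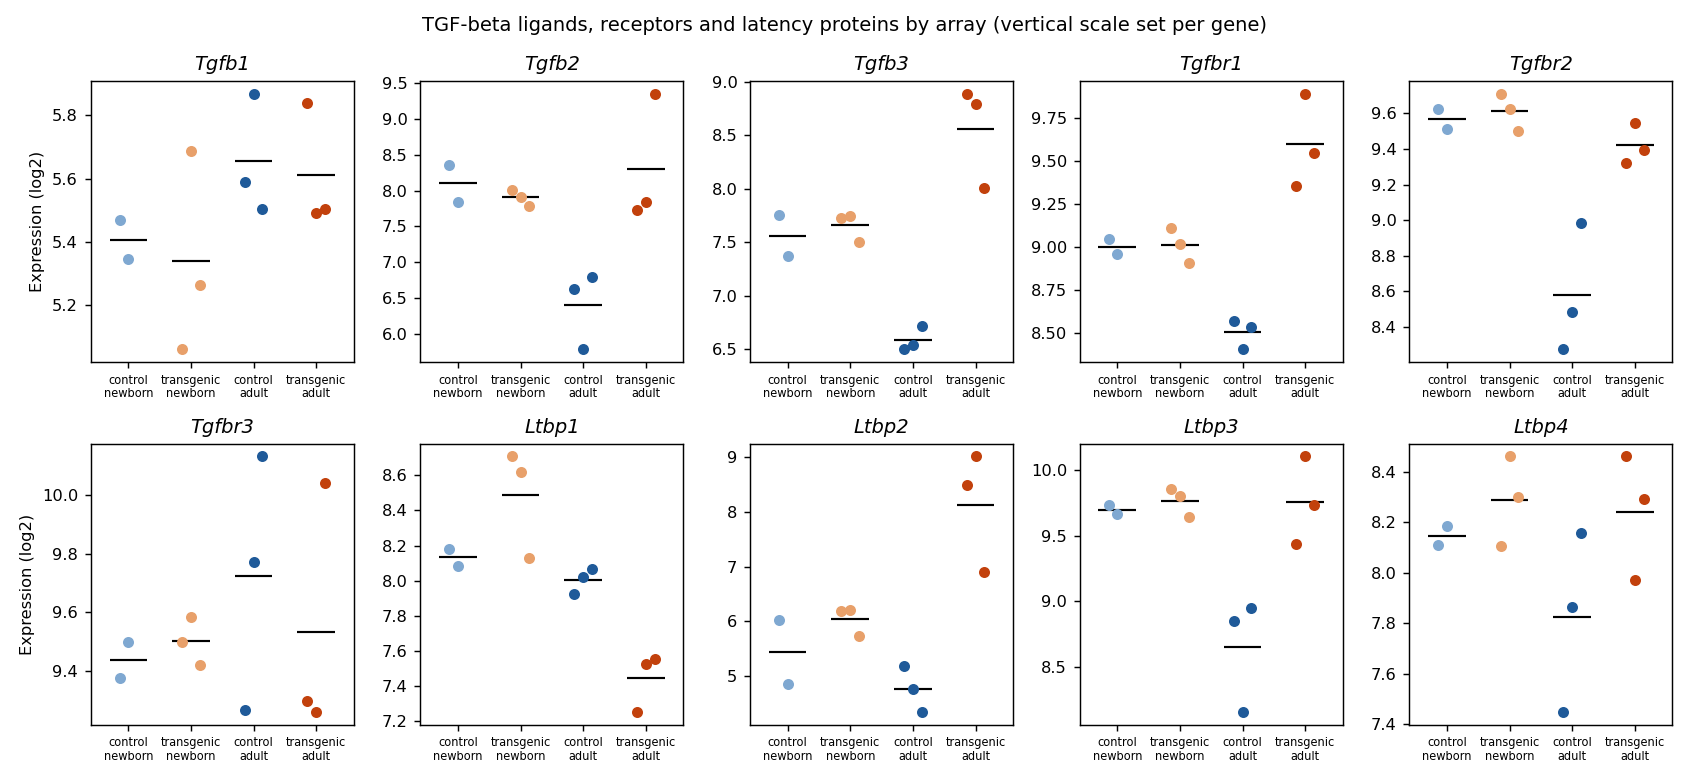
Log2 expression of each of the 10 genes on each of the 11 arrays; points are arrays, black bars are group means, and the vertical scale is set for each gene. In Tgfb2, Tgfb3, Tgfbr1, Tgfbr2, Ltbp2 and Ltbp3 every transgenic adult array lies above every control adult array, while in Ltbp1 the order is turned.

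Among the ligands, Tgfb3, which is best known for palate fusion and is also made by heart stroma, rose with the smallest p of the 10 genes. It read 8.89, 8.79 and 8.00 in transgenic replicates 1, 2 and 3 and 6.50, 6.54 and 6.72 in controls. All 3 transgenic arrays were higher, and replicate 3 was the lowest of them. The difference was 1.97 (SE 0.21, limma adjusted p = 4.56e-04).

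Tgfb2, the isoform known for its part in endocardial cushion and valve formation, read 7.73, 7.84 and 9.35 in transgenic adults and 6.63, 5.79 and 6.79 in controls. The groups did not overlap, although the high transgenic replicate 3 and the low control replicate 2 widened them. The difference was 1.90 (SE 0.39, adjusted p = 0.0145). Without control replicate 2 it was 1.60 and was no longer called (adjusted p = 0.0639). The gene has 3 further probe sets, which separated the groups more tightly. Probe set 1450922_a_at read 8.14, 7.90 and 8.48 against 5.24, 5.48 and 5.09, a difference of 2.90 (SE 0.18, adjusted p = 5.35e-05 over all 34958 single-symbol probe sets). Probe set 1450923_at differed by 2.12 (SE 0.14, adjusted p = 1.19e-04) and 1438303_at by 0.65 (SE 0.14, adjusted p = 0.0289). All 4 Tgfb2 probe sets thus read higher in transgenic adults, with sizes from 0.65 to 2.90.

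Tgfb1, the isoform most studied in fibrosis, read 5.84, 5.49 and 5.51 in transgenic adults and 5.59, 5.87 and 5.51 in controls. The groups overlapped. The difference was -0.04, with a 95% interval from -0.42 to 0.34 (adjusted p = 0.935). These values lie close to the array medians of 5.12 to 5.18, and no detection call accompanies them, so signal and background were not separated for this probe set. Its second probe set also did not pass (0.21, SE 0.13, adjusted p = 0.498).

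The start-site windows of Tgfb1 and Tgfb2 are shown because 1 of these ligands rose and the other did not pass. Promoter windows came from RefSeq, build GRCm38.p6, and span 250 bases before to 50 after a transcription start. Of the 10 genes, 8 matched, with 12 windows, and Tgfb3 and Tgfbr3 did not. Capitals mark matches, on either strand, to the GC box GGGCGG in Tgfb1 and to the E-box CACGTG and the TATA box TATAAA in Tgfb2.
Tgfb1, chr7:25686962-25686991, plus strand: gccgGGGCGGcttcaaaacccccgCCGCCC
Tgfb2, chr1:186706014-186706043, minus strand: aaaCACGTGgtttggggagcacaTATAAAa
The Tgfb2 window begins at position -54 and ends at -25 from the start, and the Tgfb1 window runs from -40 to -11. Among the 12 windows TATAAA and CACGTG were each found in 1, that of Tgfb2, where 13.6% and 7.15% of all 32851 promoter windows held them. GGGCGG was found in windows of Tgfb1, Tgfbr1, Ltbp2 and Ltbp4 and in 35.7% of all windows. These are letter matches and not measured binding sites.

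Both signalling receptors rose. Tgfbr1, the type 1 receptor kinase that phosphorylates Smad2 and Smad3, read 9.35, 9.89 and 9.55 in transgenic adults and 8.57, 8.41 and 8.53 in controls. The control arrays lay close together and all transgenic arrays lay above them. The difference was 1.09 (SE 0.14, adjusted p = 0.00112). Tgfbr2, the type 2 receptor that binds the ligand first, read 9.32, 9.55 and 9.39 against 8.27, 8.48 and 8.98. Here the transgenic arrays lay close together, and control replicate 3 was the highest control. The difference was 0.84 (SE 0.16, adjusted p = 0.0111), and without control replicate 2 it was 0.79 (adjusted p = 0.0507). Each gene has a further pair of probe sets with low values, none of which passed: their differences were 0.07 and -0.05 for Tgfbr1 and 0.05 and 0.13 for Tgfbr2. Averaging the probe sets of a gene gave 0.37 for Tgfbr1 (adjusted p = 0.0645) and 0.34 for Tgfbr2 (adjusted p = 0.0765), so both receptor calls rest on the brightest probe set.

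Tgfbr3, or betaglycan, is a co-receptor without a kinase that presents ligand, above all TGF-beta 2, to the type 2 receptor. It read 9.30, 9.26 and 10.04 in transgenic adults and 9.26, 9.77 and 10.13 in controls. Replicate 3 was the highest array in both groups, and the groups overlapped. The difference was -0.19, with a 95% interval from -0.71 to 0.33 (adjusted p = 0.756), and that of its other probe set was -0.24 (SE 0.18, adjusted p = 0.609).

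The latent TGF-beta binding proteins went different ways. Ltbp2 belongs to the family by structure but does not bind latent TGF-beta; it is an elastic fibre and microfibril protein. It read 8.49, 9.02 and 6.90 in transgenic adults and 5.19, 4.76 and 4.35 in controls. The arrays did not overlap, replicate 3 was the lowest in both groups, and the control values lay near or below the array medians. The difference of 3.37 (SE 0.48, adjusted p = 0.00221) was the largest of the 10 genes. Ltbp3, which is known to carry latent TGF-beta in bone and in the developing outflow tract, read 9.44, 10.10 and 9.73 against 8.85, 8.16 and 8.95. All transgenic arrays were higher, and control replicate 2 was the lowest. The difference was 1.10 (SE 0.21, adjusted p = 0.0104). A second Ltbp3 probe set, 1418049_at, rose by 1.19 (SE 0.16, adjusted p = 0.00320). The other pair, 1437833_at and 1456189_x_at, had low values, with differences of 0.78 and 0.55, and did not pass.

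Ltbp1, the main carrier of latent TGF-beta 1, was the only one of the 10 genes whose transgenic adult arrays all lay below the controls. It read 7.25, 7.52 and 7.55 against 7.93, 8.02 and 8.07. The difference was -0.56 (SE 0.15) and missed the threshold at adjusted p = 0.0525. With the 18S set as a factor it was called (adjusted p = 0.0274), and it was called in 6 of 23 alternatives in all. Its 2 other probe sets differed by -0.12 and -0.44 and did not pass. Ltbp4, an elastic fibre assembly protein that binds latent TGF-beta 1 weakly, read 8.46, 7.97 and 8.29 against 7.45, 7.87 and 8.16. These groups overlapped, with a difference of 0.42 (SE 0.19, adjusted p = 0.238).

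Windows of 3 binding protein genes and of Tgfbr2 are shown because they hold a Smad box or a site of another factor near the start. Capitals mark the Smad box CAGAC, the cAMP response element TGACGTCA or the AP-1 site TGACTCA, read on either strand.
Tgfbr2, chr9:116175504-116175533, minus strand: acttggagccCAGACttggcggggtggggg
Ltbp1, chr17:75005449-75005478, plus strand: tgctgccTGACGTCAcGTCTGctgcagatt
Ltbp2, chr12:84876648-84876677, minus strand: cagtccccggGTCTGccctgtcgcccgcag
Ltbp3, chr19:5740872-5740901, plus strand: ccttagccctactaagttctttTGAGTCAg
The cAMP response element of Ltbp1 lies at positions -73 to -66, and 1.79% of all promoter windows held these letters. The AP-1 letters of Ltbp3 run from -6 to 1, and a Smad box that begins at -1 overlaps them; 5.2% of all windows held an AP-1 site. The Smad box was found in 7 of the 12 windows, from Tgfb2, Tgfbr1, Tgfbr2, Ltbp1, Ltbp2 and Ltbp3, where 49.6% of all windows held it. A share of 7 in 12 is close to that background.

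**Figure D2:**
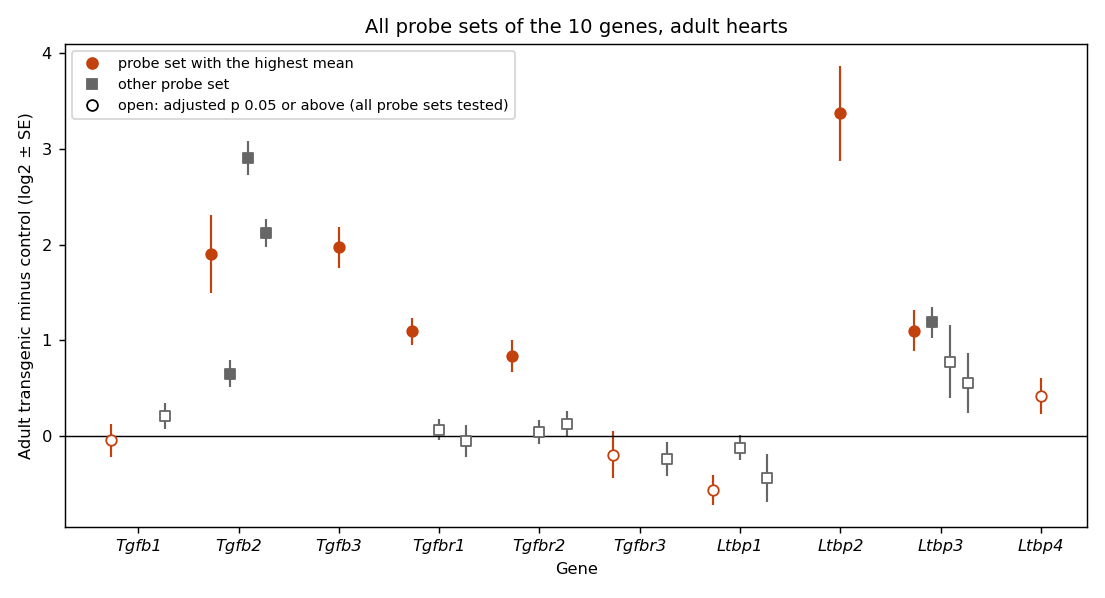
Adult transgenic minus control difference (log2, with its SE) of all 24 probe sets of the 10 genes; circles are the probe sets with the highest mean, squares the others, and filled symbols had adjusted p under 0.05 over all probe sets. All 4 Tgfb2 probe sets lie above 0, from 0.65 to 2.90, while the further probe sets of Tgfbr1 and Tgfbr2 lie near 0.

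The 6 rises stood without replicate 3 of both adult groups, the 18S set. In that fit Tgfb2 differed by 1.58 (SE 0.25), Tgfb3 by 2.32 (SE 0.15), Tgfbr1 by 1.13 (SE 0.17), Tgfbr2 by 1.05 (SE 0.13), Ltbp2 by 3.77 (SE 0.34) and Ltbp3 by 1.26 (SE 0.24), and each was called. When only the 6 adult arrays were fitted, which leaves the differences as they are and replaces the spread shared with the tighter newborn arrays, 3 were called: Tgfb3 (adjusted p = 0.0129), Tgfbr1 and Ltbp2 (adjusted p = 0.0268 each). The other values were adjusted p = 0.0990 for Tgfb2, 0.0914 for Tgfbr2 and 0.0894 for Ltbp3.

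Markers of other cells are given beside these genes, where 4.16% of all genes were called higher and 2.93% lower in adults. The atrial list (Myl4, Myl7 and Sln, 0 of 3 called) had means of 10.53, 6.59 and 6.52 in transgenic adult replicates 1, 2 and 3 and of 10.10, 10.38 and 12.24 in adult controls. With this mean as a covariate only Tgfb3 was called (2.34, SE 0.27, adjusted p = 0.00599), while the other estimates kept their direction with larger standard errors. They were 3.52 for Ltbp2 (SE 0.72, adjusted p = 0.0513), 0.89 for Tgfbr1 (SE 0.18, adjusted p = 0.0513) and 0.95 for Tgfbr2 (SE 0.24, adjusted p = 0.0982). Ltbp3 was at 0.94 (SE 0.31, adjusted p = 0.208) and Tgfb2 at 1.53 (SE 0.57, adjusted p = 0.271). The fibroblast list mean was 9.90, 10.03 and 9.10 in transgenic adults and 9.10, 8.99 and 9.39 in controls; 1 of its 8 genes, Tcf21, rose and 0 fell. The smooth muscle and pericyte list ran from 8.85 to 9.00 against 8.04 to 8.54, with 3 of 7 genes rising (Cnn1, Acta2 and Cspg4). The macrophage list ran from 8.20 to 8.80 against 7.96 to 8.33, with 3 of 9 rising (C1qc, C1qa and Mrc1). Of 8 endothelial genes 1 fell (Kdr), and of 6 epicardial genes 1 rose (Wt1), at means from 4.71 to 5.14 against 4.78 to 4.97. Counts of 1 in lists of 6 to 8 genes are near the background. Platelet markers (0 of 4 called, 7.04 to 7.52 against 6.94 to 7.08) and T cell markers (0 of 4) did not pass. Adipocyte markers (0 of 3 called) had means from 3.52 to 3.68 in transgenic adults and of 3.93, 4.06 and 6.58 in controls. In newborn arrays the atrial list means ran from 12.50 to 12.87, although the RNA was described as left ventricle. In transgenic hearts 3 of its 3 genes fell with age, where 19.7% of all genes did, and in control hearts 0 of 3 were called. The part of these cells in the results, age comparisons included, was not tested. The atrial covariate cannot decide it for the atrium, because the atrial mean differs between the groups compared. It also varies little within newborn groups (SD 0.19 in transgenic and 0.01 in control), so its slope rests on a few adult arrays. Whether atrial tissue entered some of the samples was not tested either. In RNA of whole tissue, a different number of cells of a type and a different amount of RNA per cell cannot be told apart.

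The genes whose pattern over the 11 arrays came closest were found from the root mean square difference after each gene's own mean was subtracted. For Tgfb3 they were Pdgfrl, Ctsk and Qpct, at 0.24, 0.24 and 0.25 log2 units, where the spread of Tgfb3 itself about its mean was 0.77. For Ltbp2 they were Thbs4 (0.44), Dio2 (0.51) and Pamr1 (0.52), beside its own spread of 1.42. Tgfb2 was nearest to Slc6a6 (0.25), Fam122b (0.26) and Cd44 (0.35), and Ltbp3 to the gelatinase gene Mmp2 (0.16), Stx11 (0.18) and Asap2 (0.20). Tgfbr1 was nearest to the matrix gene Ecm1 (0.12), Akap2 (0.15) and Crlf2 (0.16), and Tgfbr2 to Slc36a4, Gspt2 and Cyth3 (0.16 each). Chosen for their likeness, all of these neighbours were also higher in transgenic adults, with differences from 0.57 (Slc36a4) to 3.07 (Dio2).

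In newborn hearts 0 of the 10 genes passed between the groups labelled transgenic and control, with limma, and 0 had an unadjusted p under 0.05. The whole table likewise gave 0 calls (0%), with 198 genes at an unadjusted p under 0.05, or 910 when the newborn arrays were fitted alone. The groups overlapped for 10 of 10 genes, where 20.9% of all genes were separate, 11.1% with transgenic above and 9.83% with transgenic below. Tgfb3 read 7.72, 7.74 and 7.50 in transgenic and 7.75 and 7.37 in control newborns, a difference of 0.10 with a 95% interval from -0.43 to 0.62. Tgfb2 read 8.01, 7.91 and 7.79 against 8.36 and 7.84 (-0.20, interval -1.16 to 0.77). Tgfbr1 read 9.11, 9.02 and 8.90 against 9.04 and 8.96 (0.01, interval -0.33 to 0.35). These intervals do not hold the adult estimates of the same genes, which have errors of their own. The difference between the ages is tested below. Ltbp2 read 6.18, 6.22 and 5.73 against 6.03 and 4.85, and its interval, from -0.58 to 1.78, left the widest range. Ltbp1 read 8.71, 8.62 and 8.13 against 8.18 and 8.09, a difference of 0.35 (interval -0.03 to 0.73), the smallest p of the 10 genes. For the other members the differences were -0.07 (Tgfb1), 0.04 (Tgfbr2), 0.07 (Tgfbr3 and Ltbp3) and 0.14 (Ltbp4), and the widest of their intervals, that of Tgfbr3, ran from -0.52 to 0.65.

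**Figure D3:**
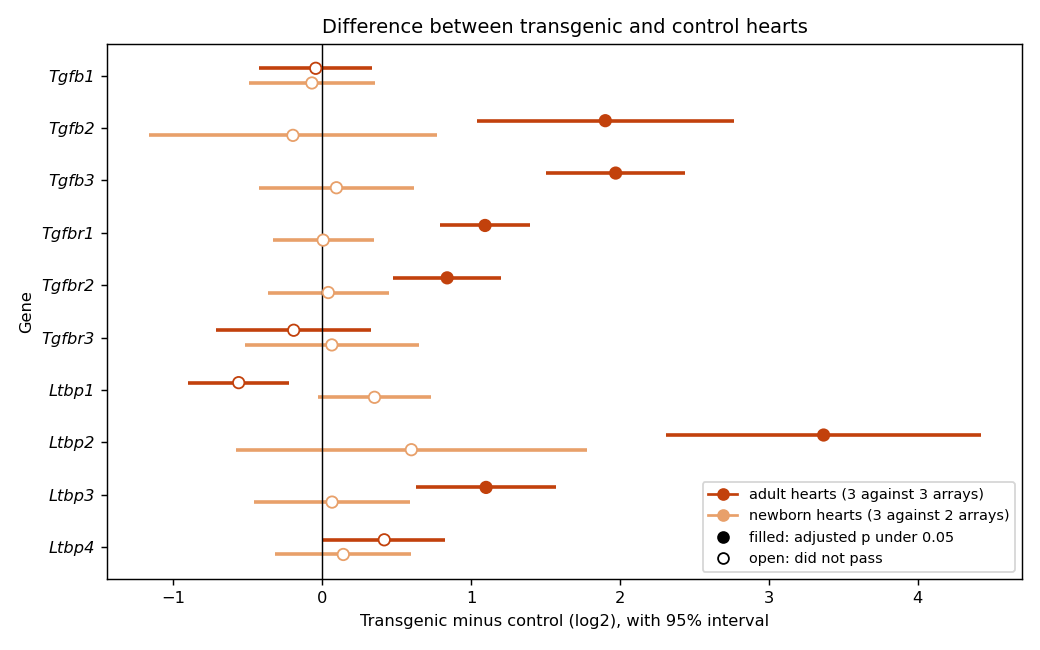
Transgenic minus control difference (log2) of each of the 10 genes in adult and newborn hearts; lines are 95% intervals of the limma fit, filled points had adjusted p under 0.05 over all genes. The 6 filled points are all adult and lie between 0.84 (Tgfbr2) and 3.37 (Ltbp2), while the newborn points lie between -0.20 (Tgfb2) and 0.60 (Ltbp2).

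The difference between the adult and the newborn effect was itself tested. Tgfb3 and Tgfbr1 had a larger effect in adults, by 1.88 (SE 0.32, adjusted p = 0.0268) and 1.09 (SE 0.21, adjusted p = 0.0442), where 0.687% of all genes were called, 0.445% with the larger value in adults and 0.242% with the smaller. The other 8 genes did not pass, although the Tgfb2 and Ltbp2 estimates were 2.10 (SE 0.59, adjusted p = 0.169) and 2.77 (SE 0.72, adjusted p = 0.134). Without the 18S set 5 of the 10 genes were called, Tgfb2, Tgfb3, Tgfbr1, Tgfbr2 and Ltbp2. Both Tgfb3 and Tgfbr1 were also called without transgenic adult replicate 3 (adjusted p = 5.97e-04 and 0.0211). When transgenic newborn replicate 1, 2 or 3, control newborn replicate 1 or 2 or control adult replicate 2 was left out, 0 of the 10 genes were called, with estimates still between 1.68 and 2.07 for Tgfb3 and between 1.03 and 1.14 for Tgfbr1. Tgfb3 alone lost its call without transgenic adult replicate 1 or 2 (adjusted p = 0.0555 and 0.0565), and Tgfbr1 alone without control adult replicate 1 or 3 (adjusted p = 0.0503 and 0.0673). With averaged probe sets Tgfbr1 was at 0.34 (adjusted p = 0.540).

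From newborn to adult, 5 of the 10 genes fell in control hearts, 0 rose and 5 did not pass. These were Tgfb2, Tgfb3, Tgfbr1, Tgfbr2 and Ltbp3. Over all genes 33% were called in either direction, 14.9% higher and 18.1% lower. The median of the 10 genes was -0.59, beside 0.09 over all genes. Control Tgfb2 went from 8.10 ± 0.37 (SD, n = 2) in newborns to 6.40 ± 0.54 (SD, n = 3) in adults, a difference of -1.70 (SE 0.44, adjusted p = 0.0134). Ltbp3 differed by -1.04 (SE 0.24, adjusted p = 0.00703), Tgfbr2 by -0.99 (SE 0.18, adjusted p = 0.00213), Tgfb3 by -0.97 (SE 0.24, adjusted p = 0.00990) and Tgfbr1 by -0.50 (SE 0.15, adjusted p = 0.0291). Ltbp2, Ltbp4 and Ltbp1 had estimates of -0.68, -0.32 and -0.13, and Tgfb1 and Tgfbr3 of 0.25 and 0.29, none of them called. Without control newborn replicate 1 only Tgfbr2 was called (adjusted p = 0.0300), and the estimates of the other 4 ran from -1.43 (Tgfb2) to -0.46 (Tgfbr1). Without control newborn replicate 2 only Tgfbr1 lost its call (-0.54, adjusted p = 0.0910), as it also did without control adult replicate 2.

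In transgenic hearts 3 of the 10 genes rose with age and 1 fell, where 39.4% of all genes were called, 19.7% in each direction. Ltbp2 was 6.04 ± 0.27 in newborns and 8.13 ± 1.10 in adults (SD, n = 3 each). This rise was 2.09 (SE 0.48, adjusted p = 0.00623). Tgfb3 rose by 0.90 (SE 0.21, adjusted p = 0.00703) and Tgfbr1 by 0.59 (SE 0.14, adjusted p = 0.00697). Ltbp1 fell by 1.04 (SE 0.15, adjusted p = 4.40e-04), from 8.49 ± 0.31 to 7.44 ± 0.17 (SD, n = 3 each). Tgfb2, Tgfbr2 and Ltbp3, which fell in control hearts, had transgenic estimates of 0.40 (95% interval -0.46 to 1.27), -0.19 (-0.55 to 0.17) and -0.01 (-0.48 to 0.46). For Ltbp3 this depends on the probe set. Those with low values, 1437833_at and 1456189_x_at (means of 4.28 and 4.33 over all arrays), fell with age in transgenic hearts. They fell by 1.48 (SE 0.38, adjusted p = 0.0142) and 1.31 (SE 0.31, adjusted p = 0.0107). The brighter 1418049_at was at -0.28 and not called (adjusted p = 0.196). All 4 Ltbp3 probe sets fell in control hearts. With averaged probe sets the transgenic value of Ltbp3 was -0.77 (adjusted p = 0.0116), and Tgfb1 was called higher at 0.45 (adjusted p = 0.00661). Both averages include probe sets with low values, for Tgfb1 1445360_at with a mean of 4.13.

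The order of the 4 groups took several forms among the 10 genes, given here by whether their arrays overlap. For Tgfb2, Tgfbr2 and Ltbp3 the control adults were lowest, and the other 3 groups overlapped each other. For Tgfb3 and Tgfbr1 the control adults were again lowest and the transgenic adults highest, with both newborn groups overlapping in between. For Ltbp1 the transgenic adults were lowest, below the control adults, and both newborn groups overlapped above them. Ltbp2 had its highest arrays in transgenic adults, and control adults and control newborns overlapped. In Tgfb1, Tgfbr3 and Ltbp4 the transgenic adults overlapped with both control adults and transgenic newborns. The difference between the 2 age changes of a gene is the same quantity as the difference between its adult and newborn effects, for which Tgfb3 and Tgfbr1 passed.

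**Figure D4:**
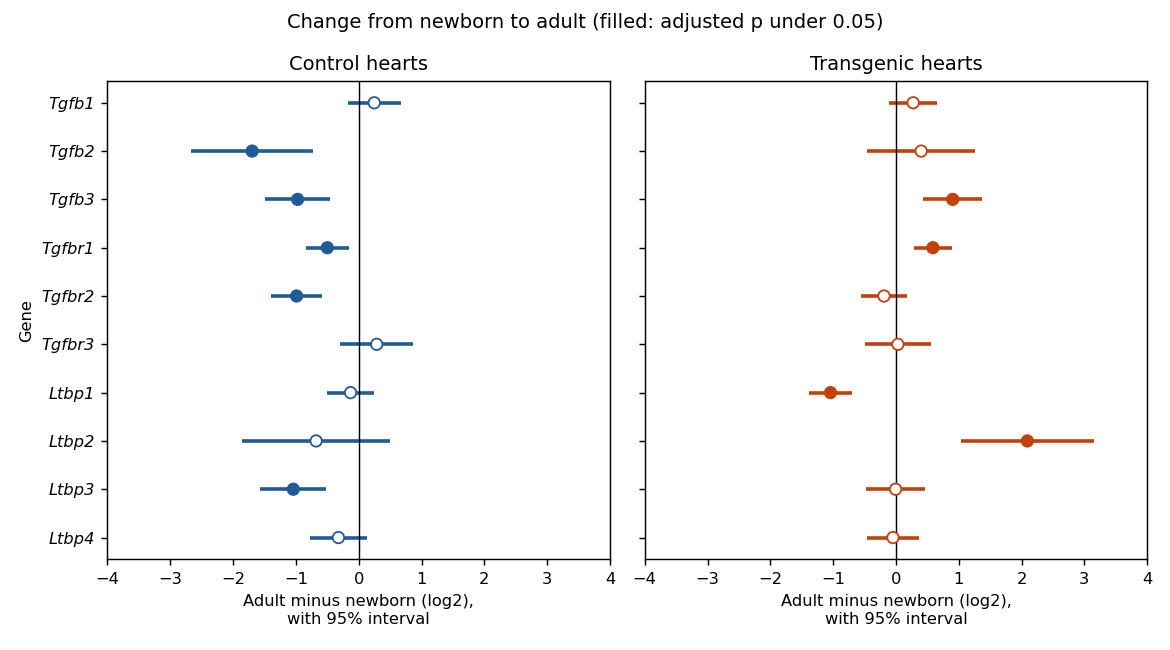
Adult minus newborn difference (log2) of each of the 10 genes in control hearts (left) and transgenic hearts (right); lines are 95% intervals of the limma fit and filled points had adjusted p under 0.05 over all genes. The 5 filled control points lie between -1.70 (Tgfb2) and -0.50 (Tgfbr1); in transgenic hearts Tgfb3, Tgfbr1 and Ltbp2 lie above 0 and Ltbp1 below it.

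Genes around the pathway were described through 8 further lists, which were also chosen with earlier results of these data known. In adults 4.16% of all genes were called higher and 2.93% lower, and the number called higher was 757. It was 1348 without the 18S set, 256 with the adult arrays alone and 162 with the atrial covariate, so list counts move with it. Genes that store or release latent TGF-beta were called higher in 4 of 16 measured members and lower in 1 in transgenic adults, with a list median of 0.49. The crosslinking enzyme Tgm2 rose by 0.87 (SE 0.13), the integrin subunit gene Itgb5 by 0.92 (SE 0.15), the gelatinase gene Mmp2 by 1.06 (SE 0.19) and the activator thrombospondin Thbs1 by 1.45 (SE 0.33). Itgb6, which encodes the epithelial integrin subunit that releases latent TGF-beta, fell by 1.46 (SE 0.31). The largest adjusted p of these 5 calls was that of Thbs1 (adjusted p = 0.0230). After a filter on low values 15 genes of the list remained, with 4 higher and 0 lower. The call of Itgb6, the only lower one, was thus lost. Without the 18S set 9 rose and 1 fell, with the adult arrays alone 3 rose and 0 fell, and with the atrial covariate 1 rose and 0 fell.

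Among the signal carriers, 0 of 13 Smads and nuclear partners were called in adults (median -0.13), and among co-receptors and receptor regulators 0 of 10 (median 0.11). With 7.09% of all genes called, counts this low are near the background for lists of this size. Without the 18S set the second count was 2. Of 7 genes of the non-Smad branch, 1 was lower, the p38 kinase gene Mapk14, which fell by 0.71 (SE 0.13, adjusted p = 0.00757) and was not called with the adult arrays alone or with the atrial covariate.

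Inhibitors and feedback genes were higher in 5 of 14 members and lower in 0, with a list median of 0.55. Over all genes 4.16% were called higher. The inhibitory Smad7 rose by 0.71 (SE 0.11, adjusted p = 0.00354), the feedback gene Pmepa1 by 1.12 (SE 0.21, adjusted p = 0.00907) and the Smad corepressor Tgif1 by 1.33 (SE 0.23, adjusted p = 0.00571). The proteoglycans biglycan (Bgn) and fibromodulin (Fmod), which bind the ligand in the matrix, rose by 1.70 (SE 0.24) and 2.33 (SE 0.51). The count was 8 without the 18S set, 2 with the adult arrays alone and 1 with the atrial covariate.

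Of 19 measured genes known as TGF-beta targets 8 were higher in transgenic adults, 0 were lower and 11 did not pass. The list median was 0.94, and over all genes 4.16% were called higher and 2.93% lower. Ccn2, a matricellular growth factor, rose by 2.53 (SE 0.26), periostin (Postn) by 3.18 (SE 0.35), the oxidase gene Nox4 by 3.40 (SE 0.38) and the protease inhibitor gene Timp1 by 3.15 (SE 0.36). The collagen crosslinker Lox, smooth muscle actin (Acta2), Comp and Tgfbi were the others. The 11 that did not pass were Col1a1, Col1a2, Col3a1, Fn1, Tnc, Tagln, Snai1, Snai2, Junb, Cdkn1a and Cdkn2b. Other pathways also regulate the genes of this list, and Acta2 is in the smooth muscle list as well. In control hearts 14 of the 19 fell with age and 0 rose, where 18.1% of all genes were called lower and 14.9% higher. In transgenic hearts 8 fell and 7 rose, where 19.7% of all genes were called in each direction. The count in adults was 14 without the 18S set, 7 with the adult arrays alone and 6 with the atrial covariate. Over all genes, the number called higher moved from 757 to 1348, 256 and 162 in these settings.

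Among 13 other ligands of the superfamily Bmp6 and Bmp4 rose, by 0.69 (SE 0.12, adjusted p = 0.00620) and 0.83 (SE 0.17, adjusted p = 0.0137), and 0 fell. Among 13 other receptors and antagonists the follistatin-like genes Fstl3 and Fstl1 rose, by 1.49 (SE 0.22, adjusted p = 0.00301) and 1.46 (SE 0.33, adjusted p = 0.0238), and 0 fell. The list medians were 0.05 and 0.11, and over all genes 4.16% were called higher. Each of these 2 lists had 1 gene called with the adult arrays alone and 0 with the atrial covariate, and without the 18S set 3 of the ligands rose and, of the receptors and antagonists, 4 rose and 1 fell. In newborns 0 genes of any of the 8 lists were called between transgenic and control.

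**Figure D5:**
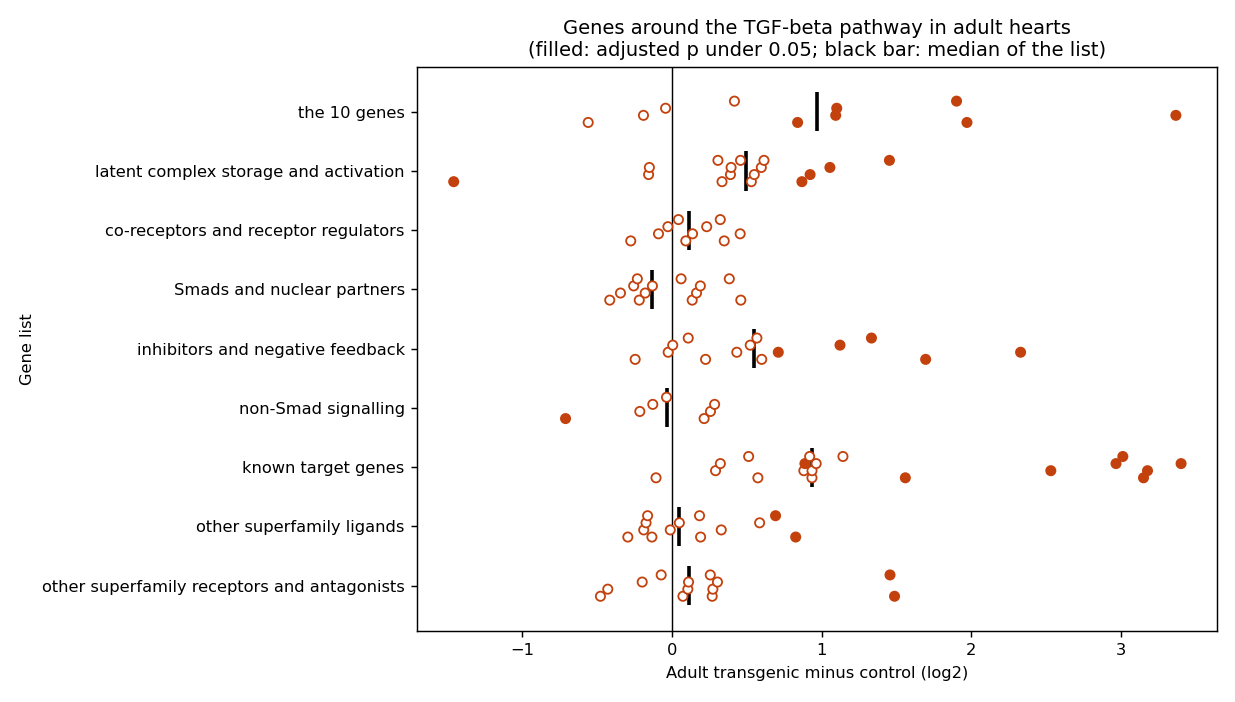
Adult transgenic minus control difference (log2) of every measured gene of the 8 pathway lists and of the 10 genes; each point is a gene, filled where adjusted p was under 0.05 over all genes, and black bars are list medians. The medians of the 10 genes and of the known targets lie at 0.97 and 0.94, and those of the Smads and of the co-receptors at -0.13 and 0.11.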

How the data were processed

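Values deposited by the authors were log2 probe set values, with RMA, affy and limma named in the submitters' processing notes without roles; the near-equal array medians would hide a change of most transcripts in 1 direction. Probe sets took names from the platform annotation, updated by gene ID through the RefSeq table of GRCm38.p6 (34754 of 34958 single-symbol probe sets matched), and the probe set with the highest mean stood for each of 18194 genes. Group means of all 11 arrays were estimated in 1 limma fit (version 3.58.1, lmFit and eBayes, R 4.3.3) and tested 2-sided, with Benjamini-Hochberg adjustment over all genes within each of 5 contrasts. The code was run on simulated data with the same spread in every group, which cannot test the effect of unequal spread. Adult arrays varied more than newborn arrays, so sharing 1 spread favours calls in adults and hinders them in newborns. The genes and lists were chosen with earlier results of these data known. Named genes were the 10 genes, up to 4 called genes per list and the 3 genes nearest in pattern; 176 of 184 listed genes were measured. The labels call the arrays biological replicates, and their number limits the precision. Alternatives covered the replicate block, probe set choice, filtering, variance, scaling, the 18S set, atrial markers and each array left out.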

Additional observations from a re-analysis of the deposited data

Results flagged for a closer look

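The effect of the transgenic label differed between ages, by limma's test of the difference itself, for Tgfb3 (1.88, adult minus newborn effect, log2), Tgfbr1 (1.09) and the target genes Ccn2 (2.43), Postn (3.04), Timp1 (3.07) and Nox4 (3.13). It also differed for 2 Tgfb2 probe sets other than the brightest, 1450922_a_at (2.86, adjusted p = 0.00338) and 1450923_at (2.13, adjusted p = 0.00555). The brightest Tgfb2 probe set gave an estimate of 2.10 that did not pass (adjusted p = 0.169).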

How the results depend on the processing

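Each of the 17 called values of the 10 genes, over the 5 contrasts, was recomputed under up to 23 alternatives: of 389 such values 340 were still called, 48 were not and 1 changed sign. That was the age change of Tgfbr1 in control hearts, 0.030 with the mean of its probe sets, where probe sets with low values enter the mean. Of 751 values for results not called, 22 became called, and 45 turned sign without a call. Of the 10 genes in adults, 3 were called with the adult arrays alone and 1 with the atrial covariate, and over all genes 373 and 238 in place of 1290. The differences are identical with the adult arrays alone, where standard errors and thresholds changed; with the covariate the 5 values that lost the call ran from 0.89 (Tgfbr1) to 3.52 (Ltbp2). The all-gene count was 2625 with the 18S set as a factor and 2183 without it. For the difference between ages, the count of the 10 genes was 0 with the replicate block, with all probe sets and with the atrial covariate, 1 with an intensity trend and with a common median, 4 with the 18S factor, 5 without that set and 7 with array weights. The all-gene counts, beside 125, were 53 (replicate block), 841 (array weights), 494 (18S factor), 711 (without it) and 10 (atrial covariate). For age in control hearts 3 of the 10 were called with the mean of probe sets, and 9349 of 34958 probe sets with all tested. For age in transgenic hearts 2 of the 10 and 1828 genes were called with the atrial covariate, and 11269 probe sets with all tested. Leaving out 1 array at a time gave 4 to 7 of the 10 genes in adults, 0 to 0 in newborns, 0 to 4 for the difference, 1 to 5 for age in controls and 4 to 4 for age in transgenic hearts. The all-gene counts ranged from 746 to 2267, 0 to 0, 6 to 540, 2829 to 7430 and 4971 to 7981. The adult count was 746 without control replicate 2 and 2267 without transgenic replicate 3. With the replicate block Ltbp1 was called in adults (adjusted p = 0.0230), but whether same numbers pair the arrays is not settled. Deviations from the group means correlated at 0.31, -0.06 and 0.45 between same-numbered adults. Transgenic adult replicates 1 and 3 correlated best with their own number, and replicate 2 did not. The newborn values, 0.18 and -0.15, cannot decide this, because the deviations of 2 control arrays mirror each other. The number of arrays limits the newborn comparison, with 2 control arrays.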
